A study of Mus musculus with 24 samples.

Results

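The cytosolic ribosomal protein genes were taken as the protein-coding genes whose symbols begin with Rpl or Rps followed by a digit, together with Rplp0, Rplp1, Rplp2 and Rpsa, while symbols that mark pseudogenes, the S6 kinases and the binding protein of Rps19 were left out. This rule gave 84 of the 28802 genes in the expression table: 43 genes of the large subunit, 31 of the small subunit, 3 of the ribosomal stalk and 7 whose symbols mark them as paralogs of another ribosomal protein gene. RNA-seq had been performed on total RNA from whole retinae of wild-type mice at postnatal day 28, with rRNA removed, in a study of retinal expression behind contrast perception and the detection of optical defocus. The 24 libraries fell into 8 strains of 3 libraries each: the classical inbred strains 129S1/Svlmj, A/J, C57BL/6J, NOD/ShiLtJ and NZO/HlLtJ, and the wild-derived strains CAST/EiJ, PWK/PhJ and WSB/EiJ. Each library was treated as a biological replicate, as in the study's methods; the sex of the animals is not given in the sources used here. Levels are in cpm, the reads assigned to a gene scaled by the total reads of the library as deposited, and the libraries held 57607000 to 78150000 reads, so that 3 reads corresponded to 0.0384 to 0.0521 cpm.

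Ribosomes translate every cytosolic mRNA, and each of their subunits is built from ribosomal RNA and a fixed set of proteins that are needed in about equal numbers, so the genes for these proteins are usually regarded as a coordinately expressed group. Their mRNAs carry a terminal oligopyrimidine tract at the start, through which mTOR signalling controls their translation, and their abundance made them the source of a very large number of processed pseudogenes, which are copies of the mRNA reinserted into the genome. Photoreceptors renew their light-sensitive outer segments throughout life, and the retina therefore has a high demand for protein synthesis.

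The labelled tissue was checked against its markers. Markers of cones, bipolar cells, amacrine cells, ganglion cells and Müller glia were present in the table (3 of 3 for each), the most abundant being Opn1sw with 109 cpm, Prkca with 129.7 cpm, Pax6 with 100.3 cpm, Nefl with 126 cpm and Glul with 609 cpm on average. Markers of lens, which is next to the retina at dissection, stood apart in single libraries. The 6 lens genes, led by Cryaa and with none at 0 in all libraries, summed to 39.8, 1612 and 24.1 cpm in the libraries of 129S1/Svlmj, to 14.6, 1812 and 16.4 cpm in NOD/ShiLtJ and to 4.86, 212 and 9.81 cpm in C57BL/6J. In the other 5 strains the lens sum lay between 5.00 and 84.5 cpm, so replicate 2 of each of 129S1/Svlmj, NOD/ShiLtJ and C57BL/6J exceeded all libraries of those strains.

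The mean level of the 84 ribosomal protein genes over all libraries ranged from 0.0158 to 80.001 cpm, with a median of 6.83 cpm. Per kilobase of annotated exon, the most abundant were Rplp1 with 58.3 cpm per kb, an acidic protein of the stalk, Rps27rt with 56.0 cpm per kb, an intronless paralog of Rps27, and Rpl4 with 52.0 cpm per kb, which lines the exit tunnel for the nascent protein. The least abundant were Rpl3l, known for its expression in striated muscle, with 0.0141 cpm per kb, Rpl39l, known from testis, with 0.0190 cpm per kb, and Rpl17 with 0.127 cpm per kb. Levels of 6 genes (Rpl3l, Rpl39l, Rpl17, Rpl38, Rpl24 and Rps29) had a mean below 0.5 cpm, and these genes were not tested, which left 78 of 84. The 84 genes lay on 19 chromosomes, with up to 14 of them on 1 chromosome. Median levels were 5.56 cpm per kb for large-subunit genes, 6.44 cpm per kb for small-subunit genes, 10.1 cpm per kb for the stalk genes and 3.68 cpm per kb for the paralogs.

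Such levels need a caution. Proteins needed in about equal numbers were encoded by genes whose levels per kb differed by orders of magnitude, and many of these genes have near-identical pseudogenes among which the authors' counting could divide the reads. A sequence search of the GENCODE annotation of GRCm38 matched 569 pseudogenes of the expression table to 77 of the 84 genes. A match needed at least 80% identity over at least 50% of the shorter of the pseudogene and gene transcripts. The median identity was 96.6%, and Rpl21 had the most matched pseudogenes, 45. Summed over genes, the matched pseudogenes held a mean of 1394 cpm per library against 919 cpm for the ribosomal protein genes themselves. Among the 78 tested genes the gene took a median of 32.6% of the reads of its family (the gene plus its matched pseudogenes), and 47 genes took under 50%. Moreover, 19 of the 84 genes overlapped another annotated gene by more than 5% of their exon bases, for example Rpl35 with Wdr38 and Rpl24 with Gm28037, and whether the counting used the strand of the reads is not given in the sources used here. Values of a single gene are therefore uncertain, and are set below beside the values of its family.

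Expression of the 78 tested genes was first compared over all 8 strains. Strain differences were found for 74 of them in limma's moderated F-test (q under 0.01), against 97.2% of the 16400 genes tested, so that the share of ribosomal protein genes was close to that of all genes. With Benjamini-Hochberg adjusted p in place of q, 56 of the 78 passed, against 70.6% of all genes. The 4 genes that did not pass with q were Rpl18, Rpl36a, Rpl41 and Rps21. Of all tested ribosomal protein genes, Rpl18, Rpl36a and Rps27 had the smallest range over the 8 strain means, 0.11, 0.13 and 0.20 on the log2(cpm + 1) scale, a scale that compresses the differences of genes at low levels. Rpl18 ranged from 3.83 to 4.16 cpm between strain means, and Rpl36a from 1.07 to 1.26 cpm.

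To find shifts shared by the group, the summed level of the 84 genes was examined in each library. The sums were 928, 1125 and 1031 cpm in the 3 libraries of 129S1/Svlmj, 1023, 1092 and 1055 cpm in C57BL/6J and 1058, 1011 and 994 cpm in NZO/HlLtJ. They were 949, 966 and 915 cpm in NOD/ShiLtJ, 837, 882 and 921 cpm in A/J and 897, 788 and 846 cpm in WSB/EiJ. The lowest sums were 813, 774 and 854 cpm in CAST/EiJ and 814, 759.6 and 732 cpm in PWK/PhJ. All libraries of C57BL/6J and NZO/HlLtJ lay above all libraries of the strains other than 129S1/Svlmj, whose own libraries spread the most and whose replicate 1 lay among those of NOD/ShiLtJ; the libraries of CAST/EiJ overlapped those of PWK/PhJ, WSB/EiJ and A/J, and those of PWK/PhJ overlapped WSB/EiJ but not A/J. Strain means ran from 769 ± 41.6 cpm (SD, n = 3) in PWK/PhJ to 1057 ± 34.5 cpm in C57BL/6J, and the genes together held 0.212% to 0.314% of the summed cpm of a library. With the matched pseudogenes included, the means ran from 2111 ± 156 cpm in PWK/PhJ to 2494 ± 236 cpm in 129S1/Svlmj, with 2431 ± 46.0 cpm in C57BL/6J. The genes took 43.5 ± 0.596% of these reads in C57BL/6J, the highest mean. The lowest were 36.9 ± 0.276% in CAST/EiJ and 36.5 ± 0.920% in PWK/PhJ. Reads of all strains had been aligned to the same reference genome, GRCm38, and the part of this in the sums and shifts was not tested. In bulk tissue, fewer cells with a high level and less RNA per cell cannot be told apart.

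Gene by gene, each strain was compared with the mean of the other 7 strains. In 129S1/Svlmj, 27 of the 78 genes were higher and 6 lower (limma, q under 0.01), against 14.5% higher and 13.0% lower of all genes tested; in C57BL/6J, 29 were higher and 3 lower, against 12.5% and 10%; and in NZO/HlLtJ, 26 were higher and 6 lower, against 12.7% and 13.2%. The median difference of the 78 genes was 0.12 in 129S1/Svlmj, 0.09 in C57BL/6J and 0.12 in NZO/HlLtJ on the log2(cpm + 1) scale, with 59, 57 and 62 of the 78 genes above 0. In these strains most ribosomal protein genes thus lay on the higher side by a small amount. Against the other classical strains alone, the higher calls were fewer, 11 in 129S1/Svlmj, 12 in C57BL/6J and 9 in NZO/HlLtJ, with 5 in A/J and 3 in NOD/ShiLtJ (all genes: 9.31, 7.97, 7.59, 10.8 and 9.76%), and the medians were 0.05 in NZO/HlLtJ, -0.14 in A/J, -0.16 in PWK/PhJ and -0.01 in NOD/ShiLtJ, the last of the other sign than its median against all 7 strains. PWK/PhJ showed the opposite, with 9 genes higher and 33 lower, against 26.6% and 22.8% of all genes, a median difference of -0.10 and 56 of 78 genes below 0. In CAST/EiJ 10 genes were higher and 27 lower, against 20.3% and 29.1%, in A/J 11 were higher and 20 lower, against 15.1% and 12.6%, and in WSB/EiJ 8 were higher and 17 lower, against 12.7% and 21.9%. Median differences in these strains were -0.05 in CAST/EiJ, -0.06 in A/J and -0.06 in WSB/EiJ, with 44, 49 and 55 of 78 genes below 0, whereas in NOD/ShiLtJ 17 genes were higher and 13 lower, against 14.9% and 9.14%, with a median of 0.04. Over all 16400 genes the median difference of a strain stayed between -0.04 and 0.03. The 8 comparisons share libraries, and each median is a description with no test; the SD of the shift over the 3 libraries of a strain ranged from 0.03 in NZO/HlLtJ to 0.13 in 129S1/Svlmj, and the median exceeded this SD clearly in NZO/HlLtJ, A/J and PWK/PhJ only. All p-values here measure the spread between these libraries.

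Several of these medians and counts moved when 1 library was left out. The share of all genes called in those fits is not given, so a loss of calls among these genes cannot be separated from one over all genes. The median of 129S1/Svlmj was 0.05 without replicate 2 and 0.20 without replicate 1, that of NOD/ShiLtJ 0.025 without replicate 2, that of CAST/EiJ -0.01 without replicate 2 and -0.08 without replicate 3, and that of WSB/EiJ -0.0003 without replicate 2 and -0.10 without replicate 1. Lower calls numbered 10 in A/J without replicate 1 and 12 without replicate 2, 9 in WSB/EiJ without replicate 2 and 11 without replicate 3, and 1 in C57BL/6J without replicate 1. Higher calls numbered 5 in A/J without replicate 3, 5 in CAST/EiJ without replicate 3, 5 in PWK/PhJ without replicate 1, and 11 and 10 in NOD/ShiLtJ without replicate 1 and replicate 2. Without the library of 129S1/Svlmj with the high lens sum (replicate 2), 21 genes were higher and 6 lower in that strain; without replicate 2 of C57BL/6J, 22 were higher and 2 lower; without replicate 2 of NOD/ShiLtJ, 10 were higher and 11 lower. In each of these 3 strains the library with the high lens sum also had the highest summed level of ribosomal protein genes, 1125, 1092 and 966 cpm, and the part of lens in it was not tested. Of the called genes in CAST/EiJ, 27.0% were higher as deposited and 38.6% (17 higher, 27 lower, against 25.3% and 24.7% of all genes) after quantile normalization. In WSB/EiJ, 32% were higher as deposited, 44.4% (12 higher, 15 lower, against 16.8% and 17.3%) after median-ratio scaling and 42.9% (12 higher, 16 lower, against 16.9% and 17.4%) after quantile normalization. No strain's median changed sign under either scaling, but those of CAST/EiJ, NOD/ShiLtJ and WSB/EiJ came to -0.01, 0.02 and -0.03 after median-ratio scaling and to -0.01, 0.01 and -0.03 after quantile normalization.

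Markers of other cells also differed between strains and libraries. The Müller glia markers (3 of 3 in the table, led by Glul, none at 0) summed to 826 ± 51.0 in 129S1/Svlmj, 732 ± 48.6 in A/J, 795 ± 28.0 in C57BL/6J, 685 ± 26.8 in CAST/EiJ, 909 ± 17.8 in NOD/ShiLtJ, 777 ± 44.4 in NZO/HlLtJ, 686 ± 27.3 in PWK/PhJ and 690.3 ± 15.8 in WSB/EiJ cpm (SD, n = 3). The endothelial markers (3 of 3, led by Pecam1, none at 0) summed to 6.84 ± 0.397 in 129S1/Svlmj, 7.43 ± 0.723 in A/J, 9.01 ± 0.888 in C57BL/6J, 4.33 ± 0.449 in CAST/EiJ, 7.37 ± 0.363 in NOD/ShiLtJ, 6.59 ± 0.189 in NZO/HlLtJ, 4.88 ± 0.408 in PWK/PhJ and 6.00 ± 0.212 in WSB/EiJ cpm. The ganglion-cell markers (3 of 3, led by Nefl, none at 0) summed to 153 ± 7.10 in 129S1/Svlmj, 114 ± 3.003 in A/J, 172 ± 13.9 in C57BL/6J, 99.1 ± 1.34 in CAST/EiJ, 137 ± 2.23 in NOD/ShiLtJ, 125 ± 1.22 in NZO/HlLtJ, 142 ± 5.23 in PWK/PhJ and 137 ± 10.2 in WSB/EiJ cpm. C57BL/6J and 129S1/Svlmj were highest here and CAST/EiJ lowest, while PWK/PhJ lay above NZO/HlLtJ. Blood markers (5 of 5, led by Hbb-bs, none at 0) summed to 20.8 ± 6.03 in 129S1/Svlmj, 22.7 ± 1.94 in A/J, 17.6 ± 9.15 in C57BL/6J, 12.3 ± 1.05 in CAST/EiJ, 28.4 ± 3.43 in NOD/ShiLtJ, 19.7 ± 1.55 in NZO/HlLtJ, 14.7 ± 7.16 in PWK/PhJ and 14.7 ± 1.18 in WSB/EiJ cpm. Single libraries held 20.1, 25.2 and 7.46 cpm in C57BL/6J and 21.8, 7.45 and 14.8 cpm in PWK/PhJ. Cone markers were highest in WSB/EiJ, 241 ± 12.1 cpm, and lowest in CAST/EiJ, 124 ± 4.96 cpm. Bipolar-cell markers were highest in WSB/EiJ, 283 ± 18.9 cpm, and lowest in A/J, 159.7 ± 6.32 cpm. The Müller glia and endothelial sums were low in CAST/EiJ and PWK/PhJ, with WSB/EiJ within their SD for Müller glia, but Müller glia were highest in NOD/ShiLtJ, and the endothelial means of A/J and 129S1/Svlmj lay within their SD. Each sum weighs its most abundant gene most, and the markers of a list did not always move together. In the limma contrasts, 1 Müller glia marker was higher and 1 lower in CAST/EiJ, where all 3 endothelial markers were lower. Bipolar-cell and ganglion-cell markers were likewise mixed in A/J, as were blood markers in 129S1/Svlmj, A/J, C57BL/6J and NZO/HlLtJ. The shares of all genes called in these strains are given above. The pigment epithelium markers (5 of 5, led by Rgr, none at 0) stood apart by library: they summed to 14.9, 40.8 and 71.7 cpm in the libraries of A/J, where the ribosomal protein genes summed to 837, 882 and 921 cpm, and to 78.3, 47.2 and 48.8 cpm in WSB/EiJ, where these genes summed to 897, 788 and 846 cpm. In the other strains their sums were 39.8, 42.8 and 36.7 cpm in 129S1/Svlmj, 29.2, 15.6 and 31.8 cpm in C57BL/6J, 14.95, 12.2 and 14.0 cpm in CAST/EiJ, 21.9, 18.1 and 20.2 cpm in NOD/ShiLtJ, 12.4, 18.7 and 11.5 cpm in NZO/HlLtJ and 11.3, 17.6 and 8.37 cpm in PWK/PhJ. The part of these cells, and of lens, in the shifts was not tested.

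The shifts were also read from families, in which the reads of a gene and of its matched pseudogenes were added. The median difference of 82 families was 0.13 in 129S1/Svlmj, 0.10 in NZO/HlLtJ, 0.08 in C57BL/6J and 0.07 in NOD/ShiLtJ, and 70, 69, 66 and 60 of the 82 families lay above 0. It was -0.03 in CAST/EiJ, -0.04 in A/J, -0.12 in PWK/PhJ and -0.12 in WSB/EiJ, where 48, 53, 63 and 73 of the 82 families lay below 0. Higher and lower calls among the 82 families, with the percentages over all features tested in the same way, were 18 and 0 in 129S1/Svlmj (14.3% and 12.7%), 2 and 14 in A/J (14.98% and 12.4%), 11 and 1 in C57BL/6J (12.3% and 9.85%), 10 and 21 in CAST/EiJ (20.2% and 29.1%), 14 and 4 in NOD/ShiLtJ (14.7% and 8.94%), 19 and 3 in NZO/HlLtJ (12.5% and 13.1%), 7 and 34 in PWK/PhJ (26.6% and 22.6%) and 2 and 24 in WSB/EiJ (12.6% and 21.7%). Each strain kept the sign its median had from the genes alone, and in 129S1/Svlmj, NZO/HlLtJ and WSB/EiJ at least 69 of 82 families lay on the same side. Among the 19 tested genes of which fewer than 10% of the 100-base windows occur in another transcript, the median differences were 0.17 in 129S1/Svlmj, 0.14 in NZO/HlLtJ, 0.13 in C57BL/6J, 0.10 in NOD/ShiLtJ, 0.01 in A/J, -0.06 in WSB/EiJ, -0.14 in CAST/EiJ and -0.16 in PWK/PhJ; A/J thus had the other sign here. Between subunits, the medians of the 40 large-subunit and the 30 small-subunit genes were 0.07 and 0.20 in 129S1/Svlmj, -0.10 and -0.03 in A/J, 0.07 and 0.18 in C57BL/6J, 0.02 and -0.14 in CAST/EiJ, 0.03 and 0.08 in NOD/ShiLtJ, 0.11 and 0.14 in NZO/HlLtJ, -0.06 and -0.15 in PWK/PhJ and -0.06 and -0.08 in WSB/EiJ, differences that were not tested; the small-subunit median was the farther from 0 in 7 strains and the nearer in A/J.

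**Figure D1:**
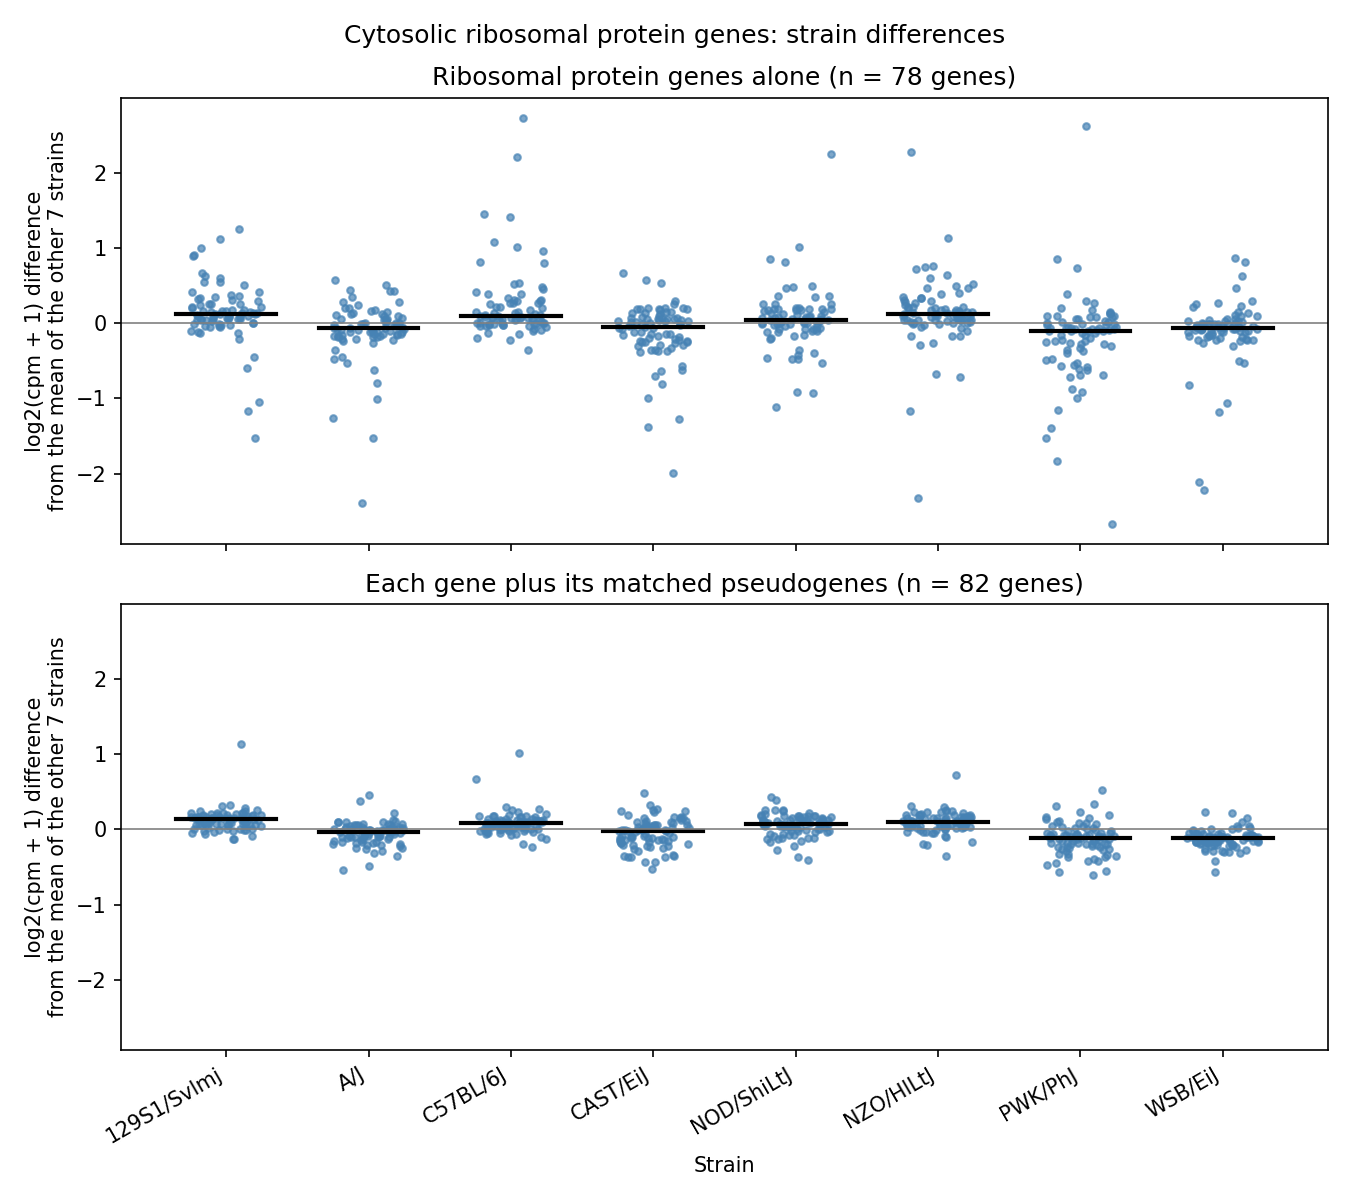
Difference of each strain from the mean of the other 7 strains, log2(cpm + 1), for 78 ribosomal protein genes alone (upper panel) and for 82 families of a gene plus its matched pseudogenes (lower panel). Each point is 1 gene or family, and black bars are the medians, which run from -0.10 in PWK/PhJ to 0.12 in 129S1/Svlmj and NZO/HlLtJ in the upper panel; points beyond 1 in either direction are mostly lost when pseudogene reads are added.

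Single genes that departed from the group were then sought. Each library was centred on the median level of the 78 genes, and a gene counted as an outlier in a strain when its centred mean lay at least 0.5 (log2) from the median of the 8 strains and its centred limma contrast had a q under 0.01. By this rule 29 of the 78 genes were outliers in at least 1 strain (57 pairs of gene and strain), against 42.7% of all genes tested; 16 were of the 40 large-subunit genes, 12 of the 30 small-subunit genes, 1 of the 3 stalk genes and none of the 5 tested paralogs. The centre itself was unsteady: its offset ran from -0.31 to 0.41 between libraries, since it is the level of whichever genes rank in the middle of a library. Without centring 31 genes were outliers, against 20.5% of all genes, and with libraries centred on the median deviation of each gene from its own mean, a choice made after the data were seen, 28 were, against 22.4%; 24 genes were outliers in all 3 ways. Rps27, Rpl36a, Rpl9, Rpl23a and Rpl15 passed with the level centre and in neither other way, although Rpl36a and Rps27 were among the 3 genes with the smallest range between strains. At a distance of at least 1, 13 genes remained, against 6.41% of all genes: Rpl29, Rpl26, Rpl14, Rpl3, Rpl7a, Rpl21 and Rpl37a of the large subunit, and Rps3a1, Rps2, Rps26, Rps24, Rps15 and Rps13 of the small subunit. Among genes with fewer than 10% of windows shared, 4 of 19 were outliers with the level centre and 6 of 19 without centring, compared with 25 of 59 and 25 of 59 among the other genes. The pseudogenes described below with each gene were chosen after their values were seen, and families hold further ones.

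Rpl29, a small basic protein of the large subunit, had the largest departure. Its level in the 3 libraries of a strain was, in cpm, 0.551, 0.397 and 0.535 in 129S1/Svlmj, 0.584, 0.467 and 0.208 in A/J, 14.996, 14.3 and 15.1 in C57BL/6J, 3.33, 3.05 and 3.17 in CAST/EiJ, 0.649, 0.542 and 0.449 in NOD/ShiLtJ, 0.351, 0.530 and 0.594 in NZO/HlLtJ, 15.3, 13.2 and 13.0 in PWK/PhJ and 0.668, 0.260 and 0.551 in WSB/EiJ. C57BL/6J and PWK/PhJ thus held high levels in every library, CAST/EiJ an intermediate level, and the other 5 strains less than 1 cpm, with no overlap between these sets. The difference from the other 7 strains was 2.72 (SE 0.08, q = 1.97e-18) in C57BL/6J and 2.62 (SE 0.08, q = 7.70e-19) in PWK/PhJ, and -1.26 (SE 0.08, q = 3.68e-12) in A/J, the lowest. Its pseudogene Gm8210 was the reverse, with 5.22, 6.41 and 6.58 cpm in 129S1/Svlmj, 3.89 to 5.74 cpm in A/J, NOD/ShiLtJ, NZO/HlLtJ and WSB/EiJ and at most 0.0200 cpm in C57BL/6J, CAST/EiJ and PWK/PhJ, where nearly all libraries were at the floor of the table (0.0001 cpm). Gm13841 had the same strain pattern with 5.82 ± 0.595 cpm (SD, n = 3) in 129S1/Svlmj, whereas Gm6344 was present in the 3 strains with the higher levels of the gene, but highest in CAST/EiJ, with 5.84 ± 0.271 cpm in C57BL/6J, 5.43 ± 0.376 cpm in PWK/PhJ, 9.38 ± 0.866 cpm in CAST/EiJ and at most 0.181 cpm elsewhere. Added together, the family held 23.2, 22.6 and 23.6 cpm in C57BL/6J and 22.9, 20.7 and 19.95 cpm in PWK/PhJ, against 10.5 to 16.8 cpm in the libraries of the other 6 strains. The 35.3-fold range of the gene over strain means became 2.01-fold, and the family remained higher in C57BL/6J, by 0.66 (SE 0.05, q = 3.19e-10), and in PWK/PhJ, by 0.52 (SE 0.05, q = 3.81e-09), and lower in A/J, -0.31 (SE 0.05, q = 2.26e-05), NZO/HlLtJ, -0.36 (SE 0.05, q = 4.58e-06), and WSB/EiJ, -0.42 (SE 0.05, q = 2.59e-07).

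The sequences show how little separates these transcripts. Over the 480 coding bases of Rpl29, Gm8210 and Gm6344 each differ at 3 bases. The stretch of 60 coding bases with the most differences is given for each (GENCODE annotation of GRCm38; Rpl29 in exon 4, the pseudogenes in their only exon; 5′ to 3′ on the strand of the transcript; capitals mark bases that differ from Rpl29):
Rpl29, chr9:106431361-106431420, plus strand: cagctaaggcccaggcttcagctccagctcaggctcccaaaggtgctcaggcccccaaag
Gm8210, chr1:43189550-43189609, plus strand: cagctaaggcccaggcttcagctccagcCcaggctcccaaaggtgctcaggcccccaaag
Gm6344, chr13:55086171-55086230, plus strand: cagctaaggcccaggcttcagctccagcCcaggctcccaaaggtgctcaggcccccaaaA

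Rpl26, which borders the exit of the nascent protein, was low in a pair of strains. Its libraries held, in cpm, 14.5, 16.4 and 16.7 in 129S1/Svlmj, 1.06, 1.03 and 0.921 in A/J, 13.7, 17.0 and 14.0 in C57BL/6J, 7.77, 7.26 and 8.21 in CAST/EiJ, 15.97, 13.2 and 15.2 in NOD/ShiLtJ, 1.20, 1.19 and 0.887 in NZO/HlLtJ, 13.6, 11.98 and 11.6 in PWK/PhJ and 13.0, 12.3 and 13.7 in WSB/EiJ. A/J and NZO/HlLtJ lay near 1 cpm in every library, CAST/EiJ below all libraries of the other 5 strains, and no library of A/J or NZO/HlLtJ overlapped those of the other 6 strains. The difference was -2.39 (SE 0.07, q = 1.15e-18) in A/J and -2.33 (SE 0.07, q = 1.90e-18) in NZO/HlLtJ. The pseudogene Gm15772 was highest in those same strains, 35.2, 40.6 and 42.0 cpm in A/J and 44.6, 38.6 and 41.0 cpm in NZO/HlLtJ, against 20.3 to 30.5 cpm in 5 strains and 16.7, 15.3 and 19.2 cpm in CAST/EiJ. In CAST/EiJ the further pseudogene Gm11826 held 8.22 ± 1.08 cpm (SD, n = 3) and Gm13268 4.28 ± 0.570 cpm, while neither exceeded 0.686 cpm in another library. For the whole family the range over strain means was 1.25-fold in place of 15.8-fold, and the differences were -0.02 (SE 0.06, q = 0.342) in A/J and 0.07 (SE 0.06, q = 0.181) in NZO/HlLtJ, neither past the threshold.

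Rpl14 was low in PWK/PhJ, with 1.26, 1.15 and 0.9496 cpm against 9.73 to 16.4 cpm in the 21 libraries of the other strains, a difference of -2.66 (SE 0.08, q = 1.43e-18). Of its 5 annotated matched pseudogenes only Rpl14-ps1 was in the expression table, so the others could not be examined. Rpl14-ps1 did not mirror the gene: it held 38.1, 35.9 and 29.8 cpm in PWK/PhJ and 27.1 to 37.4 cpm in the other strains, overlapping ranges. The family of Rpl14 was lower in PWK/PhJ by a smaller amount than the gene, -0.36 (SE 0.06, q = 3.96e-06), its 12.8-fold range becoming 1.40-fold. Rpl3, a core protein near the peptidyl transferase centre, held 3.48, 3.98 and 3.58 cpm in 129S1/Svlmj, 3.50, 3.54 and 4.26 cpm in A/J and 3.87, 4.37 and 3.90 cpm in NOD/ShiLtJ, against 15.999, 16.9 and 15.1 cpm in C57BL/6J and 17.4, 15.97 and 16.03 cpm in NZO/HlLtJ. The wild-derived strains lay between, at 7.46 to 10.6 cpm, without overlap with either set. Its difference was -1.04 (SE 0.05, q = 1.88e-13) in 129S1/Svlmj and 1.13 (SE 0.05, q = 4.45e-14) in NZO/HlLtJ. Most reads of this family were assigned to the pseudogene Rpl3-ps1, with 81.5 ± 8.79 cpm in 129S1/Svlmj and 52.6 ± 5.16 cpm in WSB/EiJ, the lowest; WSB/EiJ also held 10.5 ± 0.675 cpm of Rpl3-ps2, which did not exceed 0.385 cpm in any other strain. The gene made up 10.9% of its family, whose range was 1.20-fold against 4.48-fold for the gene.

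Rpl7a was low in a pair of wild-derived strains: its libraries held 1.35, 1.56 and 1.36 cpm in CAST/EiJ and 2.05, 1.36 and 1.96 cpm in PWK/PhJ, and 5.08 to 7.01 cpm in the other 6 strains. The differences were -1.38 (SE 0.07, q = 9.97e-15) and -1.15 (SE 0.07, q = 2.70e-13). Its most abundant pseudogenes were also lowest there, Gm8226 with 5.88 ± 0.444 cpm (SD, n = 3) in CAST/EiJ and 14.6 ± 1.32 cpm in PWK/PhJ against 17.8 to 23.0 cpm in the libraries of the other 6 strains, and Rpl7a-ps11 with 5.37 ± 0.400 and 12.3 ± 1.17 cpm against 14.8 to 19.1 cpm. The pseudogene Gm5619, in contrast, held 14.6 ± 1.35 cpm in CAST/EiJ and Gm16477 8.87 ± 0.411 cpm in CAST/EiJ and 11.1 ± 0.674 cpm in PWK/PhJ, with neither above 0.158 cpm in the other 6 strains. Rpl21 was high in 129S1/Svlmj (13.6, 16.2 and 14.2 cpm), C57BL/6J (16.9, 15.1 and 16.9 cpm) and WSB/EiJ (11.4, 11.5 and 11.4 cpm), while the remaining 5 strains held 2.81 to 4.92 cpm. The differences of Rpl21 were 1.25 (SE 0.05, q = 1.05e-14) in 129S1/Svlmj, 1.41 (SE 0.05, q = 7.86e-16) in C57BL/6J and 0.87 (SE 0.05, q = 3.45e-12) in WSB/EiJ. Among its 45 matched pseudogenes, Rpl21-ps15 held 31.0, 27.1 and 25.1 cpm in PWK/PhJ and at most 0.676 cpm in any other library, while Gm10240 and Gm13370, with equal values in each strain mean, were at 0.0832 to 0.185 cpm in PWK/PhJ and 5.32 to 14.0 cpm elsewhere, and Gm10163 at 0.0841 to 0.179 and 5.14 to 10.6 cpm. The families of Rpl7a and Rpl21 ranged 1.28-fold and 1.42-fold over strain means, against 4.64-fold and 5.08-fold for the genes. The family of Rpl7a was still lower in CAST/EiJ, -0.25 (SE 0.05, q = 4.94e-05), and did not pass in PWK/PhJ, -0.08 (SE 0.05, q = 0.0499). That of Rpl21 was higher in C57BL/6J, 0.27 (SE 0.04, q = 2.67e-05), and lower in WSB/EiJ, -0.30 (SE 0.04, q = 3.06e-06), the sign opposite to the gene. It did not pass in 129S1/Svlmj, 0.06 (SE 0.04, q = 0.140). Rpl37a had 1.71, 1.81 and 1.43 cpm in PWK/PhJ and 4.64 to 7.76 cpm elsewhere, a difference of -1.39 (SE 0.07, q = 7.19e-14), and its pseudogene Gm4149 was highest in PWK/PhJ, at 9.55, 9.36 and 8.55 cpm against 3.92 to 8.84 cpm, a range that overlapped through CAST/EiJ; its family difference in PWK/PhJ was -0.14 (SE 0.08, q = 0.0424).

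At the small subunit, Rps3a1, which encodes a protein near the exit of the mRNA channel, had the widest range, 93.8-fold over strain means and 152-fold without replicate 2 of WSB/EiJ, the strain with the lowest level. Its libraries held, in cpm, 0.457, 0.819 and 0.737 in 129S1/Svlmj, 0.587, 0.694 and 0.683 in A/J, 15.3, 14.2 and 15.5 in C57BL/6J, 3.15, 2.69 and 3.47 in CAST/EiJ, 15.3, 15.8 and 15.1 in NOD/ShiLtJ, 15.6, 16.04 and 15.4 in NZO/HlLtJ, 0.723, 0.615 and 0.644 in PWK/PhJ and 0.105, 0.295 and 0.101 in WSB/EiJ. C57BL/6J, NOD/ShiLtJ and NZO/HlLtJ formed a tight high set, CAST/EiJ was intermediate, and 129S1/Svlmj, A/J, PWK/PhJ and WSB/EiJ stayed below 1 cpm in every library. In the limma contrasts it was the ribosomal protein gene with the largest t in C57BL/6J, 2.21 (SE 0.06, q = 1.93e-18), in NOD/ShiLtJ, 2.25 (SE 0.06, q = 1.71e-18), and in NZO/HlLtJ, 2.28 (SE 0.06, q = 1.23e-18), and the one with the smallest t in 129S1/Svlmj, -1.52 (SE 0.06, q = 3.02e-15), and in WSB/EiJ, -2.11 (SE 0.06, q = 2.71e-18). Rps3a3 mirrored it, with 14.6, 16.8 and 15.5 cpm in 129S1/Svlmj, 13.9, 16.3 and 17.4 cpm in A/J, 13.8, 11.9 and 11.5 cpm in PWK/PhJ and 13.5, 11.8 and 12.2 cpm in WSB/EiJ, against 0.339 to 1.56 cpm in the other 4 strains. Gm7600 was present in the 4 strains with the higher levels of the gene (5.81 to 8.75 cpm in C57BL/6J, CAST/EiJ, NOD/ShiLtJ and NZO/HlLtJ, at most 0.112 cpm elsewhere), and Rps3a2 held 23.9 to 37.4 cpm in all 24 libraries. The family had 52.4 ± 2.88 cpm (SD, n = 3) in NZO/HlLtJ and 40.3 ± 1.20 cpm in WSB/EiJ, its highest and lowest means, a 1.30-fold range. With pseudogenes added, the differences in C57BL/6J, NOD/ShiLtJ and NZO/HlLtJ no longer passed, that in 129S1/Svlmj was 0.15 (SE 0.06, q = 0.0223), of the opposite sign, and the family was still lower in WSB/EiJ, -0.26 (SE 0.06, q = 3.33e-04), and in PWK/PhJ, -0.26 (SE 0.06, q = 1.74e-04). Over the coding sequence of 792 bases, Rps3a3 aligned at 791 bases with 8 differences and Rps3a2 at 792 with 4. The 60 coding bases with the most differences follow (Rps3a1 in exon 3, the pseudogenes in their only exon; capitals mark bases that differ from Rps3a1):
Rps3a1, chr3:86141333-86141392, minus strand: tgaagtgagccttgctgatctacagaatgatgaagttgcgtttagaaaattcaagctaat
Rps3a3, chr13:108670803-108670862, plus strand: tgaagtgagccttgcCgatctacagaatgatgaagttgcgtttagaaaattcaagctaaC
Rps3a2, chr14:88123549-88123608, minus strand: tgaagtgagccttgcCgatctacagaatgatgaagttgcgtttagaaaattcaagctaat

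Rps2, at the entry of the mRNA channel, held, in cpm, 10.8, 12.1 and 11.4 in 129S1/Svlmj, 9.004, 7.97 and 6.69 in A/J, 13.5, 19.1 and 13.9 in C57BL/6J, 1.02, 0.930 and 1.16 in CAST/EiJ, 10.9, 8.65 and 11.7 in NOD/ShiLtJ, 7.64, 8.28 and 8.20 in NZO/HlLtJ, 6.32, 5.16 and 5.90 in PWK/PhJ and 1.02, 0.748 and 0.574 in WSB/EiJ. CAST/EiJ and WSB/EiJ lay near or below 1 cpm, PWK/PhJ below the other 5 strains, and C57BL/6J above all others. The differences were -1.99 (SE 0.09, q = 4.88e-15) in CAST/EiJ and -2.22 (SE 0.09, q = 1.95e-15) in WSB/EiJ. Rps2-ps13 was abundant in the wild-derived strains alone, at 24.0, 21.5 and 22.6 cpm in CAST/EiJ, 14.6, 12.4 and 11.1 cpm in PWK/PhJ and 29.4, 26.1 and 24.7 cpm in WSB/EiJ, and did not exceed 0.168 cpm in the 15 libraries of the classical strains. Rps2-ps10 was lower in the wild-derived strains (4.78 to 6.87 cpm) than in the classical strains (14.5 to 27.0 cpm). The family ranged 1.41-fold in place of 19.9-fold, and its difference was 0.02 (SE 0.06, q = 0.289) in WSB/EiJ, where it did not pass, -0.20 (SE 0.06, q = 0.00198) in CAST/EiJ and -0.33 (SE 0.06, q = 1.93e-05) in PWK/PhJ, where it did. Rps26, which contacts the mRNA upstream of the start codon, held 1.23, 0.915 and 1.28 cpm in PWK/PhJ and 4.25 to 9.38 cpm in all other libraries, a difference of -1.84 (SE 0.07, q = 2.33e-16); Rps26-ps1 held 16.7, 15.2 and 13.7 cpm in PWK/PhJ and 6.32 to 10.1 cpm in the others, so that every library of PWK/PhJ was lowest for the gene and highest for its pseudogene. The family of Rps26 differed by 0.11 (SE 0.07, q = 0.0540) in PWK/PhJ. The pair of Rps2 and Rps2-ps13 is also near identical, with 7 differences over 882 aligned coding bases besides 13 gap positions. A stretch of 60 coding bases from each is shown (Rps2 in exon 1; capitals mark bases that differ from Rps2):
Rps2, chr17:24720300-24720359, plus strand: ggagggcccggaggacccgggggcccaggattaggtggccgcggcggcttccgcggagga
Rps2-ps13, chrX:52898612-52898671, plus strand: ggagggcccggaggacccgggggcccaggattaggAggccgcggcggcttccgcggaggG

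Rps24, which is mutated in some families with Diamond-Blackfan anaemia, held 22.8, 22.5 and 20.5 cpm in NOD/ShiLtJ, 25.1, 21.9 and 21.3 cpm in PWK/PhJ and 20.4, 19.0 and 20.7 cpm in WSB/EiJ, against 44.3 to 64.5 cpm in the 15 libraries of the other strains. The differences were -0.92 (SE 0.07, q = 7.00e-11), -0.87 (SE 0.07, q = 4.50e-11) and -1.07 (SE 0.07, q = 3.38e-12). Rps24-ps3 was high in exactly those strains, 43.6, 42.6 and 39.5, 40.9, 36.8 and 31.8 and 35.3, 40.03 and 33.7 cpm, against 10.6 to 19.2 cpm, and the family ranged 1.40-fold against 2.95-fold. It was still lower in WSB/EiJ, -0.32 (SE 0.06, q = 1.19e-04), and PWK/PhJ, -0.22 (SE 0.06, q = 0.00142), and did not pass in NOD/ShiLtJ, -0.09 (SE 0.06, q = 0.141). Rps15, needed for the export of small-subunit precursors, was at 12.6, 10.3 and 12.2 cpm in CAST/EiJ and 24.3 to 37.2 cpm elsewhere, a difference of -1.28 (SE 0.06, q = 4.82e-15). Rps15-ps2 held 11.1, 9.39 and 11.2 cpm in CAST/EiJ and 2.005 to 3.75 cpm elsewhere, and the family was still lower in CAST/EiJ, 24.1, 19.9 and 23.8 cpm against 26.6 to 40.7 cpm, with a difference of -0.52 (SE 0.06, q = 1.63e-08). Rps13 was higher in PWK/PhJ, with 6.36, 5.56 and 6.26 cpm against 2.45 to 4.44 cpm, a difference of 0.85 (SE 0.07, q = 7.11e-11) for the gene and 0.23 (SE 0.06, q = 0.00113) for the family. Rps15a held 11.4, 11.2 and 10.8 cpm in WSB/EiJ and 14.0 to 25.6 cpm elsewhere, a difference of -0.83 (SE 0.05, q = 4.26e-13), and its family was still lower there, 26.9 ± 0.588 cpm and -0.28 (SE 0.05, q = 1.15e-05), and also in CAST/EiJ, 27.8 ± 2.17 cpm and -0.23 (SE 0.05, q = 4.70e-05).

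**Figure D2:**
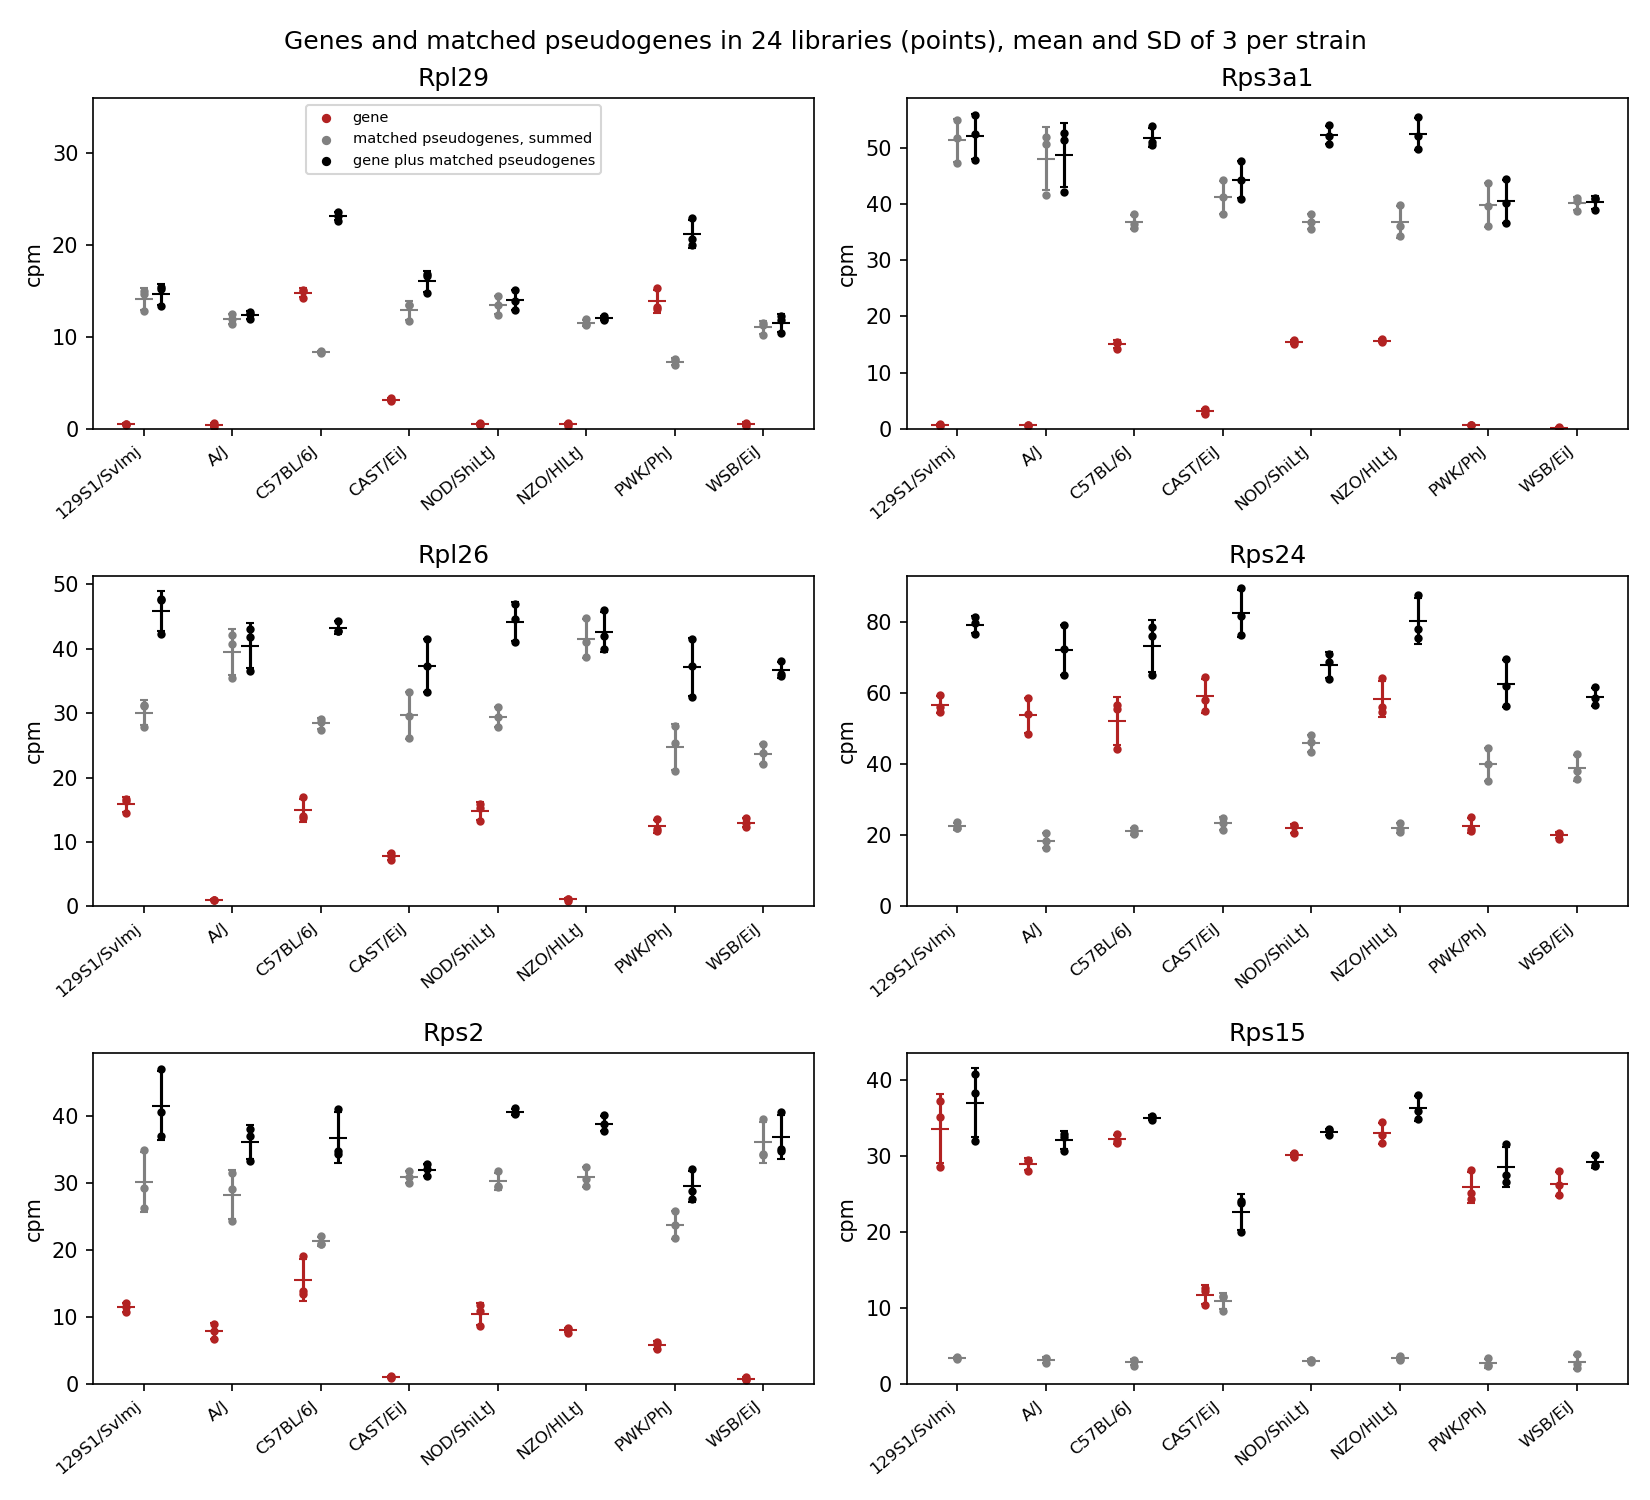
Levels (cpm) of 6 ribosomal protein genes (red), the sum of their matched pseudogenes (grey) and the sum of both (black) in each of the 24 libraries; points are libraries, horizontal marks and bars the mean and SD of the 3 libraries of a strain. For Rps24, red points are lower and grey points higher in NOD/ShiLtJ, PWK/PhJ and WSB/EiJ than in the other strains. Such opposite movement does not hold between all strains: for Rpl26, red and grey points are both lower in WSB/EiJ than in 129S1/Svlmj. Black points have narrower ranges over strain means, of 1.25-fold for Rpl26 and 2.01-fold for Rpl29.

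The proteins of the stalk, through which elongation factors are recruited, differed in their behaviour. Rplp0, which anchors the stalk, held 25.2, 29.5 and 24.5 cpm in C57BL/6J, 22.6, 27.2 and 22.8 cpm in NOD/ShiLtJ, 22.9, 20.1 and 21.2 cpm in WSB/EiJ and 20.3, 20.4 and 21.6 cpm in A/J, against 6.98 to 12.9 cpm in the other 4 strains, without overlap. The largest differences were 0.96 (SE 0.09, q = 1.18e-08) in C57BL/6J and -0.99 (SE 0.09, q = 1.30e-09) in CAST/EiJ. Its pseudogene Gm8730 was the reverse, 9.41 to 14.4 cpm in 129S1/Svlmj, CAST/EiJ, NZO/HlLtJ and PWK/PhJ and 2.37 to 5.09 cpm in the other 4 strains, and the family differed by 0.26 (SE 0.08, q = 0.00726) in C57BL/6J and -0.23 (SE 0.08, q = 0.00524) in CAST/EiJ. Rplp1 ranged from 23.1 ± 0.771 cpm (SD, n = 3) in A/J to 35.6 ± 5.02 cpm in 129S1/Svlmj, with a q under 0.01 in those strains only, -0.35 (SE 0.06, q = 6.40e-05) and 0.33 (SE 0.06, q = 1.47e-04). Rplp2, whose 2 matched pseudogenes are annotated but not in the expression table, was low in PWK/PhJ, with 1.72, 1.31 and 1.43 cpm against 2.04 to 3.39 cpm in every other library, a difference of -0.57 (SE 0.07, q = 1.88e-07), and was higher in CAST/EiJ, 0.25 (SE 0.07, q = 0.00152); it counted as an outlier without centring but not with the level centre. Among small-subunit genes with a further role, Rpsa, also known as a laminin receptor, was lower in CAST/EiJ, -0.57 (SE 0.06, q = 1.24e-08), with 15.7, 14.9 and 18.1 cpm, and in PWK/PhJ, -0.48 (SE 0.06, q = 1.36e-07), with 17.999, 18.2 and 15.1 cpm, against 21.1 to 30.9 cpm elsewhere. Its most abundant pseudogene, Rpsa-ps10, was also low in them (14.9 ± 0.894 and 14.99 ± 1.29 cpm against 19.2 to 32.7 cpm). Rpsa-ps2 held 7.87 ± 1.01 cpm in CAST/EiJ and 5.06 ± 0.668 cpm in PWK/PhJ, more than the 1.93 to 3.40 cpm of the other libraries, and the family remained lower in both strains, with differences of -0.36 (SE 0.06, q = 7.23e-06) and -0.45 (SE 0.06, q = 4.13e-07). Rps27a, made as a fusion with ubiquitin, was lower in WSB/EiJ, -0.23 (SE 0.07, q = 0.00335), and passed in no other strain, its strain means lying between 4.18 ± 0.323 and 5.50 ± 0.567 cpm.

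Some genes were also outliers with the pseudogenes added. With families in place of genes, a choice made after the data were seen, 5 of 82 families were outliers with the level centre (Rpl29, Rps12, Rps18, Rps23 and Rps3), against 21.1% of all features tested in the same way, and 6 of 82 without centring (Rpl29, Rplp2, Rps15, Rps18, Rps23 and Rps3), against 20.1%. Rplp2 is among the 5 genes of the 82 with no matched pseudogene in the expression table, so that its value is that of the gene itself. The differences of Rpl29 and Rps15 were much smaller as families, as given above. Of the 29 single-gene outliers, 3 were still outliers as families. Added reads that do not vary with a gene also shrink its distance, so this loss does not by itself show that reads moved. Rps18, Rps23, Rps12 and Rps3 are described here because they were outliers as families, that is, after their values were seen. Rps18, in the head of the small subunit, held, in cpm, 5.59, 7.27 and 6.87 in 129S1/Svlmj, 2.07, 2.43 and 2.29 in A/J, 5.38, 7.12 and 5.87 in C57BL/6J, 3.10, 2.99 and 2.88 in CAST/EiJ, 2.63, 2.37 and 2.53 in NOD/ShiLtJ, 2.85, 3.11 and 3.35 in NZO/HlLtJ, 3.42, 2.76 and 3.18 in PWK/PhJ and 2.26, 2.07 and 2.18 in WSB/EiJ. All libraries of 129S1/Svlmj and C57BL/6J lay above all others, and with its pseudogenes the family held 8.49, 8.40 and 9.64 cpm in 129S1/Svlmj and 7.63, 8.84 and 8.16 cpm in C57BL/6J against 2.33 to 3.67 cpm elsewhere. For the family the difference was 1.13 (SE 0.05, q = 9.36e-14) in 129S1/Svlmj and 1.02 (SE 0.05, q = 4.42e-13) in C57BL/6J, and its 3.50-fold range over strain means was the widest of the 78 tested genes, above the 3.03-fold of the gene alone. Rps23, a protein of the decoding centre, held 13.6, 12.1 and 11.7 cpm in NZO/HlLtJ and 8.99, 10.6 and 11.1 cpm in A/J, against 5.16 to 9.15 cpm elsewhere; replicate 1 of A/J and replicate 1 of WSB/EiJ overlapped. It had the largest t of the ribosomal protein genes in A/J, 0.42 (SE 0.05, q = 1.01e-06), and the family differed by 0.46 (SE 0.06, q = 8.43e-07) in A/J and 0.72 (SE 0.06, q = 7.61e-10) in NZO/HlLtJ. Rps3, at the mRNA entry and also known as a DNA repair protein, was lower in PWK/PhJ, 30.7, 28.8 and 26.4 cpm and -0.61 (SE 0.05, q = 5.15e-10), and in CAST/EiJ, 33.5, 32.3 and 34.3 cpm and -0.36 (SE 0.05, q = 1.45e-06), against 40.8 to 53.8 cpm elsewhere; none of its 100-base windows was found in another transcript. The gene Rps12 had a range of 1.25-fold (3.36 to 4.21 cpm between strain means), but its family was higher in CAST/EiJ, 0.48 (SE 0.06, q = 1.19e-07), and PWK/PhJ, 0.33 (SE 0.06, q = 1.63e-05), where the pseudogene Rps12-ps10 held 9.89 ± 0.509 and 9.23 ± 0.810 cpm against 0.0001 to 0.0258 cpm elsewhere, and lower in A/J, -0.29 (SE 0.06, q = 2.30e-04), and WSB/EiJ, -0.29 (SE 0.06, q = 1.69e-04). Its most abundant copy, Rps12l1, was instead lowest in the first 2 of these strains, with 6.95 ± 0.649 cpm in CAST/EiJ and 6.45 ± 0.986 cpm in PWK/PhJ against 8.24 to 13.0 cpm.

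Rpl5 and Rpl28 were each an extreme of a strain. Rpl5, a binding partner of Mdm2, was the ribosomal protein gene with the largest t in CAST/EiJ, 0.58 (SE 0.05, q = 1.13e-09), with 16.3, 16.2 and 18.4 cpm against 9.41 to 12.8 cpm elsewhere; its family had the opposite sign, -0.15 (SE 0.05, q = 0.00460). Rpl28 had the smallest t in C57BL/6J, -0.35 (SE 0.07, q = 2.39e-04), with 1.77, 1.93 and 1.66 cpm. Its level was lower still in A/J (1.47, 1.33 and 1.33 cpm) and similar in NOD/ShiLtJ (1.66, 1.91 and 1.59 cpm). It was high in 129S1/Svlmj (3.40, 4.98 and 3.95 cpm), NZO/HlLtJ (4.30, 4.46 and 4.66 cpm) and WSB/EiJ (4.00, 3.16 and 3.59 cpm). The family difference in C57BL/6J was 0.06 (SE 0.07, q = 0.291). The 5 tested paralogs all differed in the F-test, against 97.2% of all genes. Their ranges over strain means ran from 1.26-fold (Rpl36al) to 1.65-fold (Rps27l). Rps27l, a target of p53 signalling, ranged from 1.04 ± 0.0937 cpm (SD, n = 3) in PWK/PhJ to 1.72 ± 0.106 cpm in NOD/ShiLtJ, and was lower in PWK/PhJ, -0.28 (SE 0.05, q = 2.84e-05), and in CAST/EiJ, -0.22 (SE 0.05, q = 4.54e-04), and higher in NOD/ShiLtJ, 0.19 (SE 0.05, q = 0.00419). Rpl7l1 was lower in CAST/EiJ, -0.25 (SE 0.04, q = 2.12e-05), and PWK/PhJ, -0.13 (SE 0.04, q = 0.00492), and higher in 129S1/Svlmj, 0.22 (SE 0.04, q = 2.33e-04), and C57BL/6J, 0.14 (SE 0.04, q = 0.00868). Rpl22l1 was higher in CAST/EiJ, 0.20 (SE 0.05, q = 7.16e-04), and lower in NOD/ShiLtJ, -0.17 (SE 0.05, q = 0.00677). Rpl36al was lower in WSB/EiJ, -0.18 (SE 0.06, q = 0.00406), and CAST/EiJ, -0.18 (SE 0.06, q = 0.00283), and higher in PWK/PhJ, 0.15 (SE 0.06, q = 0.00839). Rps27rt ranged from 18.4 ± 0.576 cpm in PWK/PhJ to 23.3 ± 1.16 cpm in NZO/HlLtJ and was lower in PWK/PhJ, -0.19 (SE 0.06, q = 0.00359). It is intronless and its 252 coding bases are identical to those of Rps27, yet it was listed at 56.0 cpm per kb and Rps27 at 1.42 cpm per kb; reads of the shared stretch cannot be told apart by sequence, as in the 60 bases that are the same in both:
Rps27, chr3:90213242-90213301, minus strand, and Rps27rt, chr9:114982642-114982701, minus strand: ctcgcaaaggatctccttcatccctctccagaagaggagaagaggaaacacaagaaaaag

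Over the 78 tested genes, the ratio of the highest to the lowest strain mean had a median of 1.56 for the gene alone and 1.34 for the family. It exceeded 2 for 26 genes alone and for 4 families, and the largest ratio was 93.8 for a gene (Rps3a1; 152 without replicate 2 of WSB/EiJ) and 3.50 for a family (Rps18). Of the 73 tested genes with a matched pseudogene in the table, 56 had a narrower range as a family. Among those with wide ranges, Rps2 went from 19.9-fold to 1.41-fold, Rps26 from 7.11-fold to 1.22-fold, and Rpl37a from 4.22-fold to 1.53-fold. The gene took a median of 32.6% of the reads of its family, so adding reads that do not vary with the gene also narrows its range. A narrower family range therefore does not by itself show that reads moved between a gene and its pseudogenes. Of the 168 matched pseudogenes that were themselves tested, 166 differed between strains in the F-test and 80 were outliers without centring, beside the 97.2% and 20.5% of all genes. Some of them, such as Rpl21-ps15 in PWK/PhJ, passed the filter on low values only through the strains that hold them. Nothing is therefore concluded from this comparison. Whether the reads of a strain moved between a gene and its pseudogenes through differences of sequence, of copy number or of pseudogene expression was not tested, since no sequence of the strains was analysed here.

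**Figure D3:**
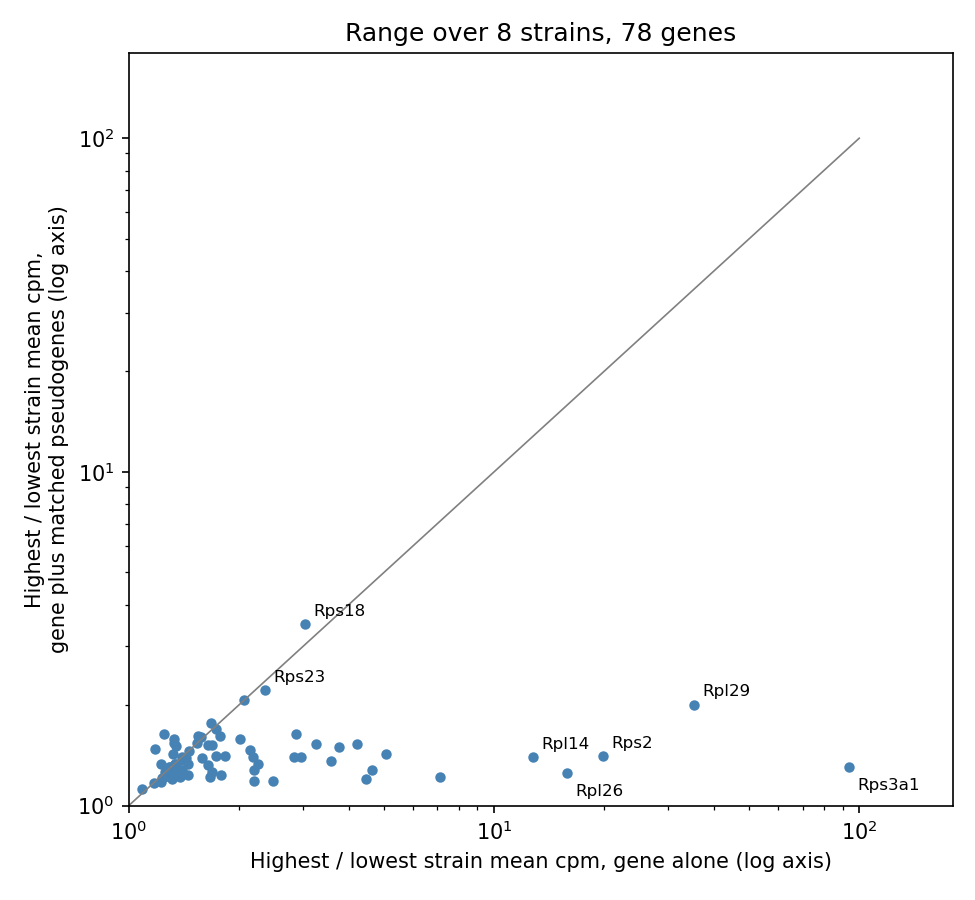
Ratio of the highest to the lowest of the 8 strain means (cpm) for 78 tested ribosomal protein genes, for the gene alone (x axis, log) and for the gene plus its matched pseudogenes (y axis, log); the line marks equal ratios. Rps3a1 lies at 93.8 on the x axis (152 without replicate 2 of WSB/EiJ, where its level is lowest) and 1.30 on the y axis, whereas Rps18 (3.03 and 3.50) and Rps23 lie close to the line.

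Other genes of the translation machinery were compared as lists; their F-test counts stand beside the 97.2% of all genes that passed. Of 24 further ribosome and oligopyrimidine-tract genes (Fau, Rack1, elongation and initiation factors among them), 22 differed between strains in the F-test, and 1 was an outlier with the level centre and 1 without centring. Their median difference was 0.08 in 129S1/Svlmj, 0.07 in C57BL/6J, 0.05 in NZO/HlLtJ and 0.08 in NOD/ShiLtJ, and -0.06 in A/J, -0.07 in CAST/EiJ, -0.05 in PWK/PhJ and -0.09 in WSB/EiJ, in each strain of the same sign as that of the ribosomal protein genes. Higher and lower calls among the 24 genes, with the percentages over all genes, were 6 and 0 in 129S1/Svlmj (14.5% and 13.0%), 1 and 3 in A/J (15.1% and 12.6%), 3 and 0 in C57BL/6J (12.5% and 10%), 3 and 8 in CAST/EiJ (20.3% and 29.1%), 5 and 2 in NOD/ShiLtJ (14.9% and 9.14%), 2 and 2 in NZO/HlLtJ (12.7% and 13.2%), 1 and 6 in PWK/PhJ (26.6% and 22.8%) and 1 and 4 in WSB/EiJ (12.7% and 21.9%). Eef1g, a subunit of the elongation factor that reloads the carrier of aminoacyl-tRNA, had the largest absolute t of the list in 6 strains, for example 0.40 (SE 0.05, q = 1.23e-07) in 129S1/Svlmj and -0.51 (SE 0.05, q = 7.89e-10) in CAST/EiJ. Npm1, a nucleolar chaperone, led in NOD/ShiLtJ with -0.43 (q = 9.49e-07).

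The 33 ribosome biogenesis genes all differed in the F-test, against 97.2% of all genes. Their median difference was 0.01 in 129S1/Svlmj, 0.05 in NOD/ShiLtJ, -0.07 in A/J, -0.04 in CAST/EiJ and -0.05 in WSB/EiJ, with the sign of the ribosomal protein genes, and -0.03 in C57BL/6J, -0.02 in NZO/HlLtJ and 0.12 in PWK/PhJ, with the other sign. In PWK/PhJ, 14 of the 33 biogenesis genes were higher and 2 lower, against 26.6% and 22.8% of all genes. Of the 78 tested ribosomal protein genes, 33 were lower there and 9 higher, and the difference between the lists was not tested. The biogenesis genes were led in PWK/PhJ by Nop10, part of the pseudouridylation complex, with 0.41 (SE 0.07, q = 4.14e-06). Gar1 of the same complex was lower in CAST/EiJ, -0.48 (q = 9.34e-07), and higher in WSB/EiJ, 0.53 (q = 6.51e-07), and 9 of the 33 genes were outliers with the level centre and none without centring. Of 22 regulators of ribosomal protein genes and of mTOR signalling, 20 were tested and 17 differed; their medians lay between -0.03 and 0.04 in all strains, with 8 outliers with the level centre and 1 without centring. Deptor, an inhibitor of mTOR, was that 1 gene, higher by 0.65 (SE 0.05, q = 2.04e-11) in PWK/PhJ. Of 78 mitochondrial ribosomal protein genes, 74 differed, and 26 were outliers with the level centre and 11 without centring, with medians from -0.08 in WSB/EiJ to 0.04 in PWK/PhJ; Mrps17 was lower in PWK/PhJ, -0.94 (q = 1.07e-15). Of 83 tested subunits of oxidative phosphorylation, which are also short and abundant transcripts, 79 differed, and 13 were outliers with the level centre and 6 without centring, with medians from -0.07 to 0.06; Cox7a2l was lower in CAST/EiJ, -1.17 (q = 3.37e-16). Of the 64 tested pseudogenes with a ribosomal protein symbol, 61 of the 156 listed having been matched by sequence here, all 64 differed, and 40 were outliers with the level centre and 33 without centring. A pseudogene that is near 0 in most strains passes the filter on low values only through the strains that hold it, as did Rpl3-ps2 through WSB/EiJ. These outlier counts stand beside 42.7% of all genes with the level centre and 20.5% without centring.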

How the data were processed

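Ribosomal RNA-depleted stranded total RNA had been sequenced as paired ends; per the study's methods, alignment to the mouse genome (GRCm38/mm10) used STAR, and counting used Partek's E/M annotation model. The deposited cpm values were made by the authors by dividing the count of a gene by the total reads of the library and adding 0.0001. Values were analysed as log2(cpm + 1), with no count test because low values were not all whole reads. Genes averaging 0.5 cpm or more (16400 of 28802) were fitted with limma 3.58.1 (R 4.3.3; empirical Bayes with a trend), by an F-test over the 8 strains and by a contrast of each strain with the unweighted mean of the other 7; q denotes Storey's q-value over all genes tested, and calls required q under 0.01. Differences are on the log2(cpm + 1) scale, with their standard error (SE). Pseudogenes of the table were matched to the ribosomal protein genes with blastn 2.17.0 on GENCODE vM21 transcripts, and for families cpm were summed before log2. Genes were named as the 15 outliers with the largest distance, the genes with the largest and smallest t of each strain, the 3 highest and 3 lowest per kb, the 3 with the smallest range, the stalk genes, Rpsa, Rps27a and the paralogs, and in each comparison list the gene with the largest absolute t of a strain. The members and lists were chosen with earlier results of these data known. The methods name a RefSeq annotation, whereas the gene types in the table are Ensembl terms. Alternatives were another pseudocount, scaling, filter, threshold, variance model or reference, leaving out each library, and, chosen after the data were seen, summed families, deviation centring and genes with few shared windows.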

Additional observations from a re-analysis of the deposited data

How the results depend on the processing

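Values per gene may be affected by reads divided between a gene and its pseudogenes, which was not tested. At the lowest inferred depth 3 reads equal 0.0521 cpm. The number of genes past the limma F-test, 74, was 72 to 78 when 1 library was left out, with no share of all genes given for those fits. It was 48 of the 48 tested with a mean of at least 5 cpm required (99.4% of the 9274 genes tested there), and 56 with Benjamini-Hochberg adjusted p (70.6% of all genes). The single-gene differences run under the alternatives were those of 15 outliers in their farthest strain and of the largest and smallest t of each strain; they kept their sign except when pseudogene reads were added, and the other differences named were not run. No paired analysis was possible because the replicate numbers only give the order of the accessions, and the labels do not say in which randomized block a library was pooled.

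With a mean of at least 5 cpm, of 48 genes tested 1 was lower in C57BL/6J (9.19% of all genes under that filter), 4 were higher in CAST/EiJ (21.1%), 6 lower in NOD/ShiLtJ (8.78%), 5 higher in PWK/PhJ (29.7%) and 10 lower in WSB/EiJ (24.1%; limma), the median differences were -0.1311 in CAST/EiJ, 0.1723 in NZO/HlLtJ and -0.2167 in PWK/PhJ, and 19 genes were outliers (26.2%). Higher calls in CAST/EiJ numbered 10 as deposited, 17 after quantile normalization (25.3% of all genes), 6 with Benjamini-Hochberg adjusted p (16.6%) and 18 with q under 0.05 (27.4%); at that limit 18 genes were higher in A/J (24.0%) and 26 lower in WSB/EiJ (32.0%). Against the other classical strains alone, 11 genes were higher in 129S1/Svlmj, 5 in A/J, 12 in C57BL/6J, 3 in NOD/ShiLtJ and 9 in NZO/HlLtJ, and the median differences were -0.1431 in A/J, -0.013 in NOD/ShiLtJ (reversed from 0.0436), 0.052 in NZO/HlLtJ and -0.1627 in PWK/PhJ. The causes of these changes were not tested. At a distance of at least 1, 13 genes were outliers (6.41% of all genes).

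Among genes with few shared windows the median was 0.008 in A/J (reversed from -0.063), -0.138 in CAST/EiJ and 0.1003 in NOD/ShiLtJ. With pseudogene reads added, 0 of 82 families were lower in 129S1/Svlmj in the limma contrast (12.7% of all features), 2 higher in A/J (14.98%), 11 higher and 1 lower in C57BL/6J (12.3% and 9.85%), 4 lower in NOD/ShiLtJ (8.94%), 3 lower in NZO/HlLtJ (13.1%) and 2 higher in WSB/EiJ (12.6%), and the median in NZO/HlLtJ was 0.0958. Outliers then numbered 5 with the level centre (21.1% of all features) and 6 without centring (20.1%). They numbered 6 with pseudogenes of at least 95% identity only and 5 with deviation centring, for which no share of all features is given. These differences changed sign when pseudogene reads were added: Rps3a1 in 129S1/Svlmj to 0.1459, Rpl28 in C57BL/6J to 0.0582, Rpl5 in CAST/EiJ to -0.151, Rpl3 in NOD/ShiLtJ to 0.0701, Rpl26 in NZO/HlLtJ to 0.071 and Rpl21 in WSB/EiJ to -0.3031. Of these, only Rpl5 in CAST/EiJ and Rpl21 in WSB/EiJ passed as families (limma, q under 0.01). Centred differences reversed for Rps2 in WSB/EiJ to 0.141, Rps26 in PWK/PhJ to 0.1661 and Rpl21 in 129S1/Svlmj to -0.0253. These alternatives were chosen after the data were seen, and the cause was not tested.

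Leaving out 1 library gave 5 to 13 genes higher and 10 to 22 lower in A/J (5 without replicate 3; 10 without replicate 1; 12 without replicate 2), 1 to 3 lower in C57BL/6J (1 without replicate 1), and 5 to 14 higher in CAST/EiJ (5 without replicate 3). It gave 10 to 18 higher in NOD/ShiLtJ (11 without replicate 1; 10 without replicate 2), 5 to 9 higher in PWK/PhJ (5 without replicate 1), and 9 to 19 lower in WSB/EiJ (9 without replicate 2; 11 without replicate 3). The lowest and highest median differences were 0.0487 and 0.1999 (129S1/Svlmj), -0.0786 and -0.0455 (A/J), 0.0604 and 0.1234 (C57BL/6J), -0.0756 and -0.0129 (CAST/EiJ), 0.025 and 0.0627 (NOD/ShiLtJ), 0.1082 and 0.1307 (NZO/HlLtJ), -0.1445 and -0.0902 (PWK/PhJ), and -0.1035 and -0.0003 (WSB/EiJ), and 28 to 32 genes were outliers. Shares of all genes in these fits are not given, so a change in these counts cannot be separated from one over all genes.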
